A study of Mus musculus with 18 samples.

Results

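The set described here is 9 transcription factors that build the kidney in the embryo: *Osr1*, *Pax2*, *Pax8*, *Lhx1*, *Emx2*, *Sim1*, *Six2*, *Wt1* and *Foxd1*. They were chosen by name, each matched 1 row of the gene table, and they are 9 of the 38924 genes listed. RNA was sequenced from adult fibroblasts of heart, kidney and tail, in 6 groups of 3 libraries. The donors were 10-week-old male Rosa mT/mG mice on a C57BL/6 background, whose cells carry the red reporter TdTomato, and the cells had spent 10 days in culture. Between 400000 and 500000 of these cells were placed on gelatin foam under the kidney capsule of syngeneic C57BL/6J mice aged 10 to 11 weeks, and after 3 days the CD45-;TdTomato+ cells were sorted out of the graft (HFs, KFs and TFs for heart, kidney and tail). The remaining cells were replated for the same 3 days and served as cultured controls (HFc, KFc and TFc). All groups thus share the donor strain and the first culture period, and for the transplanted kidney cells the graft site was also their organ of origin. The paper describes 3 biological replicates per condition. Nothing in the labels says whether the libraries of a group came from separate animals or cultures, so p-values measure the spread between libraries.

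The mammalian kidney arises from the intermediate mesoderm. *Osr1* marks this tissue early, and *Pax2*, *Pax8* and *Lhx1* specify the nephric duct, an epithelial tube whose outgrowth, the ureteric bud, branches into the collecting ducts. *Emx2* is needed for bud branching and *Sim1* is a marker of duct and bud. Around the bud lies the metanephric mesenchyme, in which *Six2* keeps nephron progenitors undifferentiated and *Wt1* acts in the mesenchyme and later in podocytes, the filtering cells of the glomerulus. *Foxd1* marks the progenitors of the renal stroma, from which kidney fibroblasts and pericytes descend. In the adult, *Pax2* and *Pax8* stay on in parts of the tubular epithelium.

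The libraries held between 17927838 and 32245168 counts. The detection floor was set at 3 counts in a library. CPM, used below, is the depth-scaled count with edgeR's TMM factors. Scaled by library totals alone, without these factors, the floor lay from 0.093 to 0.167 CPM, and it covers counting error only. One library stood apart. KFs replicate 3, whose column names kidney fibroblasts without a replicate code, had 0.722 CPM of 4 Y-linked genes together and 1490 CPM of *Xist*, against 175 to 230 CPM and at most 0.404 CPM in the other 17 libraries, although donors were male. It also had 8720 CPM of *Col1a1*, a fibrillar collagen, against 37600 and 31100 CPM in the other 2 KFs libraries, and 70.2 CPM of *Krt8*, a keratin of simple epithelia, against 4.29 and 1.31 CPM. Comparisons of the 8 tested members that involve KFs are therefore given with and without this library.

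Across all 18 libraries, 8 of the 9 genes passed the filter on low counts and were tested. *Lhx1* did not pass. The members lie on 7 chromosomes of GRCm38, only *Pax8* and *Wt1* sharing chromosome 2 and only *Pax2* and *Emx2* sharing chromosome 19. Counting used strand. An antisense gene, *Emx2os* (chr19:59425104-59458635), overlaps the start of *Emx2* (chr19:59458372-59465357), and the pair is counted separately.

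The RefSeq promoter table (GRCm38.p6) held 7 members and lacked *Osr1* and *Wt1*. The 250 bases upstream of *Pax8* (chr2:24475600-24475849, minus strand) and of *Six2* (chr17:85688255-85688504, minus strand) are shown because these genes had opposite patterns over the organs. They are written 5′ to 3′ on the gene's strand, with capitals for CCAAT and for GGGCGG, searched on both strands, so that CCGCCC is GGGCGG on the other strand.
Pax8: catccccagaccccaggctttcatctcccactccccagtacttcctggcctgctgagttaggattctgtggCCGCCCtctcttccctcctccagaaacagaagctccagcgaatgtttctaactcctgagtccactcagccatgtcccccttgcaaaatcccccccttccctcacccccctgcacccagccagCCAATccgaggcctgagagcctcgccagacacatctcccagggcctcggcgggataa
Six2: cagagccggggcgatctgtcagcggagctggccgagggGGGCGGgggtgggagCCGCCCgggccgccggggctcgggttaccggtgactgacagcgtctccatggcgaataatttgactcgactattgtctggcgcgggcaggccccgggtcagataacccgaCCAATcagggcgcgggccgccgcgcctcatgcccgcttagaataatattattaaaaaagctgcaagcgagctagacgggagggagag
The *Pax8* window held 1 CCAAT and 1 GGGCGG and the *Six2* window 1 and 2. Of 32851 promoter windows of the same length, 33.8% held CCAAT and 32.7% held GGGCGG. The *Six2* window had 26 CpG pairs and the *Pax8* window 6, at a GC content of 64.8% and 60.4%, with a median of 52.4% over all windows. TATAAA, in 12.4% of windows, was in neither. A match of letters is a description and not a binding site.

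**Figure D1:**
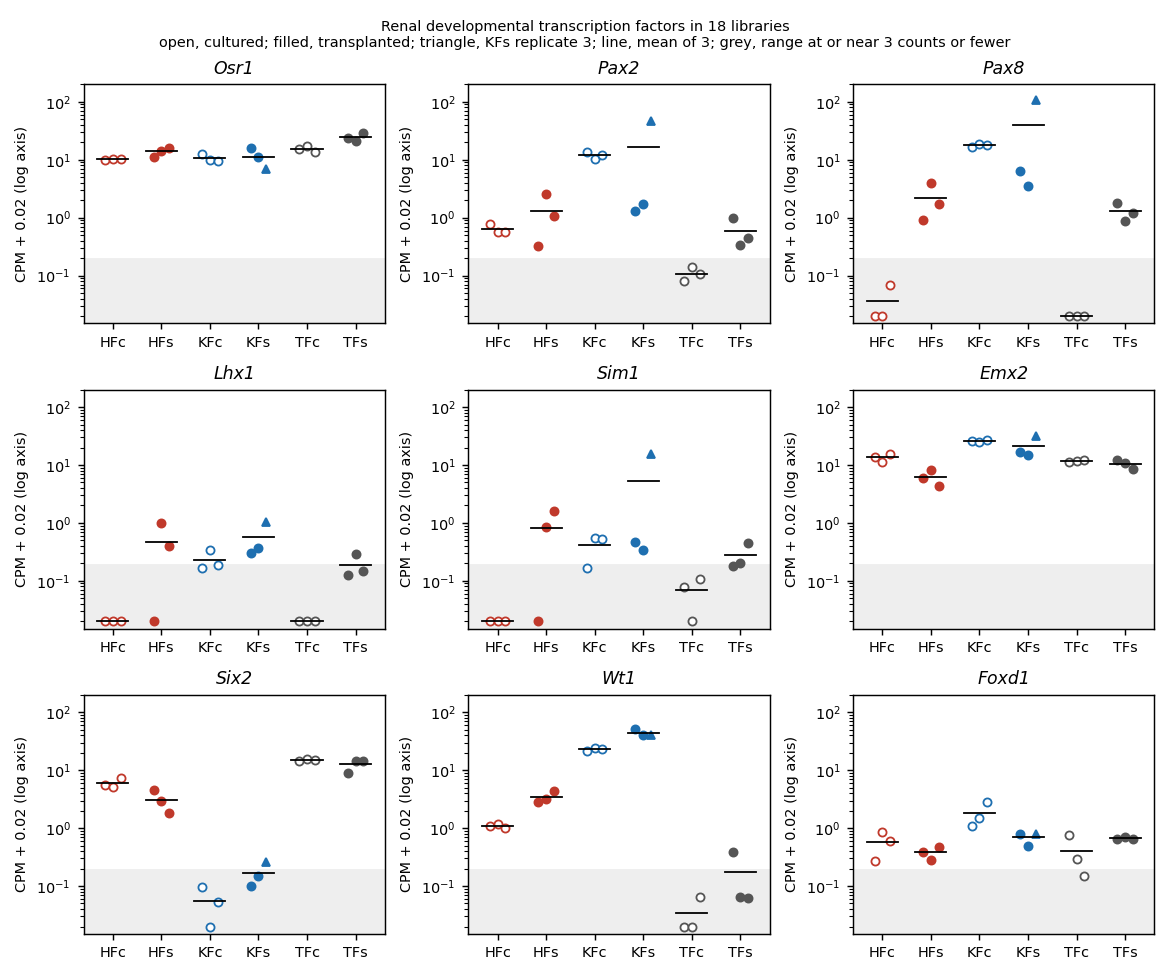
Level of each of the 9 genes in the 18 libraries, as CPM + 0.02 on a log axis, by group. Points are libraries (open, cultured, filled, transplanted, triangle, KFs replicate 3), lines are means of 3, and the grey band marks levels at or near 3 counts; *Pax2*, *Pax8* and *Sim1* show the triangle far above the other 2 KFs points, whereas for *Wt1* it lies among them.

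Compared in culture, kidney fibroblasts differed from tail fibroblasts in 6 of the 8 tested genes (adjusted p under 0.05, edgeR quasi-likelihood test). *Pax2*, *Pax8*, *Wt1*, *Emx2* and *Foxd1* were higher and *Six2* was lower. Of all 16577 genes tested, 36.4% passed in this comparison, 17.8% higher and 18.5% lower. The same 5 genes were higher and *Six2* was lower in KFc relative to HFc, where 29.2% of all genes passed, 14% higher and 15.1% lower. HFc and TFc differed in 3 members, *Wt1* being higher in heart and *Six2* and *Osr1* lower, against 41.9% of all genes, 20.9% higher and 21% lower. Because all libraries share 1 estimate of the spread, leaving out KFs replicate 3 also moved these cultured counts, to 7 members for KFc relative to TFc (43.8% of all genes), 7 for KFc relative to HFc (36.3%) and 4 for HFc relative to TFc (48.6%).

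In the graft 7 members differed between KFs and TFs, 5 higher and 2 lower in kidney, where 29.1% of all genes passed, 15.3% higher and 13.8% lower. Between KFs and HFs 4 were higher in kidney and 1 lower, against 33.2% of all genes, 19% higher and 14.2% lower. Between HFs and TFs 1 was higher in heart and 2 lower, against 23.1% of all genes, 10.3% higher and 12.7% lower. Without KFs replicate 3 the counts were 5 of 8 for KFs relative to TFs (35.1% of all genes), 3 of 8 for KFs relative to HFs (38.8%) and 4 of 8 for HFs relative to TFs (31%).

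Within a group, levels between genes can be compared only per length. Per kilobase of exon, KFc had most of *Emx2*, 8.75 ± 0.393 CPM per kb (SD, n = 3), followed by *Osr1* with 5.12 ± 0.788, *Wt1* with 3.71 ± 0.25, *Pax8* with 2.95 ± 0.169 and *Pax2* with 2.22 ± 0.287. *Foxd1* had 0.349 ± 0.173 CPM per kb there. In TFc the order began with *Osr1* at 7.51 ± 0.917 CPM per kb and *Six2* at 7.11 ± 0.283, and in HFc with *Osr1* at 4.89 ± 0.0578 and *Emx2* at 4.48 ± 0.69. *Osr1* and *Emx2* were above the floor in every library of all 6 groups.

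*Osr1* (ENSMUSG00000048387, chr12:9570116-9581500), a zinc finger factor of the early intermediate mesoderm and of limb connective tissue, was highest in the tail cells. TFc had 15.3, 17.5 and 13.7 CPM and TFs had 23.8, 20.7 and 28.5 CPM. KFc had 12.5, 9.7 and 9.57 CPM, KFs had 16.1, 11.0 and 6.97 CPM, HFc had 9.98, 10.1 and 10.2 CPM and HFs had 11.3, 14.4 and 16.1 CPM. The TFs libraries lay above all others, the KFs libraries were scattered, and KFs replicate 3 was the lowest library of all. *Osr1* was lower in KFs than in TFs by a log2 fold change of -1.1 ± 0.23 (SE, adjusted p = 0.0023), and without KFs replicate 3 the value was -0.85 ± 0.19 (adjusted p = 0.00297). Fitted on these 6 libraries alone, it was -1.09 (adjusted p = 0.0887). HFs was also below TFs (-0.8 ± 0.23, adjusted p = 0.0191), a call that was lost without HFs replicate 1 (adjusted p = 0.11), HFs replicate 2 (0.0681) or TFs replicate 3 (0.081). In culture HFc was below TFc by -0.62 ± 0.23 (adjusted p = 0.0413), and this was lost without each of 5 of the 6 libraries, all but TFc replicate 3, with adjusted p between 0.0796 and 0.124. KFc relative to TFc was -0.55 ± 0.23 (adjusted p = 0.0716), and -0.53 ± 0.17 in the fit without KFs replicate 3 (adjusted p = 0.0197). KFs relative to KFc was 0.11 ± 0.23 (adjusted p = 0.729) with and 0.32 ± 0.19 (adjusted p = 0.179) without that library, and KFs relative to HFs was -0.29 ± 0.23 (adjusted p = 0.355) and -0.06 ± 0.19 (adjusted p = 0.836). From TFc to TFs the change was 0.65 ± 0.23 (adjusted p = 0.0348), under the limit of 1 on the log2 scale that comparisons of graft and culture had to pass.

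*Pax2* (ENSMUSG00000004231, chr19:44756045-44837871) and *Pax8* (ENSMUSG00000026976, chr2:24420560-24475599), paired box factors of the nephric lineage, were kidney genes in culture. *Pax2* had 13.5, 10.4 and 12.1 CPM in KFc, 0.765, 0.542 and 0.541 CPM in HFc, and 2, 3 and 2 counts in TFc. *Pax8* had 16.8, 18.8 and 18 CPM in KFc, a total of 1 count in HFc and none in TFc. No library of another cultured group came near KFc for either gene. The ratio of KFc to TFc for *Pax2* was 140 (95% counting interval 67.8 to 349, adjusted p = 0.0011), and KFc exceeded HFc by a log2 fold change of 4.27 ± 1.1 (adjusted p = 0.00872). For *Pax8*, KFc was at least 158-fold higher than the floor of 3 counts per library in TFc (adjusted p = 0.000698) and 1380-fold higher than HFc (counting interval 248 to 54700, adjusted p = 0.00102).

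After transplantation the KFs libraries split. *Pax2* had 1.29 and 1.67 CPM in KFs replicates 1 and 2 and 46.5 CPM in replicate 3, and *Pax8* had 6.27 and 3.56 CPM in the first pair and 109 CPM in replicate 3. Replicate 3 thus held 31.4 times the mean *Pax2* level and 22.3 times the mean *Pax8* level of the other KFs libraries, and lay on the opposite side of KFc. With all 3 libraries, the change from KFc to KFs was 0.45 ± 0.91 for *Pax2* (adjusted p = 0.703) and 1.15 ± 0.9 for *Pax8* (adjusted p = 0.307). Without replicate 3 both genes were lower in the graft, with log2 fold changes of -3.05 ± 0.55 for *Pax2* (adjusted p = 0.000219) and -1.91 ± 0.46 for *Pax8* (adjusted p = 0.00311). In bulk samples, fewer cells that make a transcript and less of it per cell cannot be told apart.

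*Pax8* was higher in HFs and TFs than in their cultured controls, and the part of host RNA in this was not tested. HFs had 0.902, 3.97 and 1.67 CPM and TFs had 1.77, 0.863 and 1.19 CPM, where their cultured controls had 1 count in 6 libraries together. HFs was 175-fold above HFc (counting interval 31 to 6980, adjusted p = 0.0126), and TFs was at least 11.3-fold higher than the floor in TFc (adjusted p = 0.0362). The tail call was lost when any 1 of the 6 libraries was left out, with adjusted p between 0.0506 and 0.0887. For *Pax2* the levels were 0.301, 2.56 and 1.06 CPM in HFs and 0.963, 0.318 and 0.424 CPM in TFs. The HFs libraries spanned those of HFc (log2 fold change 1.1 ± 1.1, adjusted p = 0.418). TFs was 6.38-fold above TFc in counts (counting interval 2.79 to 17, adjusted p = 0.214), and this passed in the fit without KFs replicate 3 (adjusted p = 0.00947).

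In the graft, organ differences of these genes leaned on KFs replicate 3. *Pax2* was 4.87 ± 1.2 above TFs (adjusted p = 0.0051) and 3.62 ± 1.0 above HFs (adjusted p = 0.0152) on the log2 scale. Without that library the differences were 1.41 ± 0.57 (adjusted p = 0.065) and 0.14 ± 0.53 (adjusted p = 0.862). The second was also lost without HFs replicate 1 (3.13, adjusted p = 0.058), without HFs replicate 3 (3.41, adjusted p = 0.0586) and when replicate numbers entered as a block (2.99, adjusted p = 0.0691). For *Pax8* the difference from TFs was 4.97 ± 1.1 (adjusted p = 0.00432) and 1.96 ± 0.47 without the library (adjusted p = 0.00544), and that from HFs 4.16 ± 1.0 (adjusted p = 0.00777) and 1.13 ± 0.45 (adjusted p = 0.0627). In fits on the 6 libraries compared, none of these passed, with adjusted p of 0.118 and 0.192 for *Pax2* and 0.0917 and 0.127 for *Pax8* against TFs and HFs.

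*Lhx1* (ENSMUSG00000018698, chr11:84518284-84525535), a LIM homeobox factor of duct and nephron precursors, was barely detected. It had 4, 9 and 5 counts in KFc and 7, 11 and 25 counts in KFs, 0, 22 and 10 counts in HFs, 2, 6 and 3 counts in TFs, and no count in HFc or TFc. It was not tested at the filter used. KFc was at least 1.86-fold higher than the floor in TFc and at least 1.76-fold higher than that in HFc. With no filter on low counts, *Lhx1* was higher in HFs than in HFc (adjusted p = 0.00515), in TFs than in TFc (0.0386), in KFc than in TFc (0.0272) and in KFc than in HFc (0.0349), each against a group without counts, and KFs relative to KFc had a log2 fold change of 1.31 (adjusted p = 0.39). With the usual filter and 1 library left out, *Lhx1* was tested in most fits. KFc relative to HFc was then lost in all 6 such fits (adjusted p between 0.0521 and 0.0869), TFs relative to TFc in all but the fit without TFs replicate 1 (0.0553 to 0.0939), and KFc relative to TFc without KFc replicate 2 or any TFc library (0.0568 to 0.0715). HFs relative to HFc passed in each of the 5 fits that tested it (0.000732 to 0.0183), and without HFs replicate 2 the gene did not pass the filter.

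*Sim1* (ENSMUSG00000019913, chr10:50894754-50989152), a bHLH-PAS factor, was low in most libraries and highest in KFs replicate 3. It had 0.149, 0.524 and 0.498 CPM in KFc, no count in HFc and 2, 0 and 2 counts in TFc. KFs had 0.445 and 0.321 CPM in replicates 1 and 2 and 15.2 CPM in replicate 3, 39.7 times the mean of the other 2. HFs had 0, 0.837 and 1.56 CPM and TFs 0.161, 0.182 and 0.424 CPM. The rise from KFc to KFs (3.74 ± 1.4, adjusted p = 0.036) rested on that library, and without it the value was -0.08 ± 1.1 (adjusted p = 0.958). That call was lost without KFc replicate 1, 2 or 3 as well (adjusted p = 0.115, 0.0795 and 0.0824), with a replicate block (2.58, adjusted p = 0.0868) and in a fit on the 6 libraries alone (3.71, adjusted p = 0.111). The KFs excess over TFs (4.33 ± 1.4, adjusted p = 0.0375) was also lost, at 0.55 ± 1.1 without KFs replicate 3 (adjusted p = 0.741), 3.38 with the block (adjusted p = 0.0599), and 4.1, 4.13 and 4.91 without TFs replicate 1, 2 or 3 (adjusted p = 0.101, 0.121 and 0.0878). KFs relative to HFs was 2.68 ± 1.3 (adjusted p = 0.129), and -1.11 ± 1.1 without KFs replicate 3 (adjusted p = 0.444). HFs was at least 6.68-fold higher than the floor in HFc (adjusted p = 0.0218), although HFs replicate 1 had no count, and the call was lost without HFc replicate 1 or 2 or HFs replicate 3 (adjusted p = 0.0557, 0.0579 and 0.0651).

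*Emx2* (ENSMUSG00000043969), a homeobox factor of the urogenital system, was measured in every group. KFc had 26.1, 25.2 and 27.5 CPM, HFc had 13.9, 11.2 and 15.3 CPM and TFc had 11.4, 11.7 and 12.4 CPM. The KFc libraries lay above all other cultured libraries, while HFc and TFc overlapped. KFc exceeded TFc by 1.15 ± 0.26 (adjusted p = 0.00258) and HFc by 0.97 ± 0.26 (adjusted p = 0.00964) on the log2 scale, the second with adjusted p = 0.0504 without HFc replicate 2. In the graft, KFs had 16.8, 14.8 and 31.7 CPM, replicate 3 being the highest, HFs had 5.89, 8.33 and 4.37 CPM and TFs had 12.1, 10.9 and 8.44 CPM. The kidney excess was 1.77 ± 0.27 over HFs (adjusted p = 0.000168) and 1.01 ± 0.26 over TFs (adjusted p = 0.00839), and 1.34 ± 0.2 and 0.6 ± 0.2 without KFs replicate 3 (adjusted p = 0.000117 and 0.0288). On the 6 libraries alone the excess over TFs was 1.02 (adjusted p = 0.107).

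*Emx2* fell on transplantation of heart cells, by a log2 fold change of -1.12 ± 0.27 (adjusted p = 0.00216). Without HFs replicate 3 the value was -0.86, under the limit of 1 set for these comparisons (adjusted p = 0.0162). In kidney the change was -0.32 ± 0.25 (adjusted p = 0.315), and -0.78 ± 0.2 without KFs replicate 3 (adjusted p = 0.0041), which is also under that limit, and in tail it was -0.18 ± 0.26 (adjusted p = 0.616). The antisense gene *Emx2os* went from 3.35, 3.45 and 3.49 CPM in HFc to 7.21, 5.64 and 6.99 CPM in HFs (0.95 ± 0.23, adjusted p = 0.00243), under that limit. It also went from 4.88, 5.48 and 5.18 CPM in KFc to 8.41, 7.88 and 15.4 CPM in KFs. In tail it went from 7.83, 5.89 and 5.48 CPM in TFc to 8.78, 10.4 and 10.4 CPM in TFs.

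*Six2* (ENSMUSG00000024134, chr17:85684277-85688274), the factor that maintains nephron progenitors, was at or near the floor in kidney fibroblasts and well above it in the other organs. KFc had 2, 0 and 1 counts and KFs had 0.0809, 0.128 and 0.241 CPM, 12 counts together. TFc had 14.4, 15.6 and 15.1 CPM, TFs had 8.83, 14.5 and 14.3 CPM, HFc had 5.54, 5.21 and 7.47 CPM and HFs had 4.45, 2.95 and 1.82 CPM. The order from tail through heart to kidney held in culture and in the graft with no overlap between organs. TFc exceeded KFc 428-fold (counting interval 146 to 2080, adjusted p = 1.14e-08) and HFc exceeded it 169-fold (57.4 to 822, adjusted p = 8.25e-08). KFs was below TFs by -6.35 ± 0.44 (adjusted p = 1.36e-07) and below HFs by -4.31 ± 0.44 (adjusted p = 5.64e-06) on the log2 scale, and by -6.81 ± 0.51 and -4.77 ± 0.53 without KFs replicate 3 (adjusted p = 8.92e-08 and 6.68e-06). Heart lay below tail by -1.31 ± 0.31 in culture (adjusted p = 0.00304) and -2.04 ± 0.32 in the graft (adjusted p = 0.000282).

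On transplantation *Six2* changed in heart cells by -0.99 ± 0.32 (adjusted p = 0.0154), just inside the limit of 1 so that it was not called. It passed that limit without HFc replicate 1 (-1.06, adjusted p = 0.026), HFc replicate 2 (-1.1, adjusted p = 0.021) or HFs replicate 1 (-1.29, adjusted p = 0.00502). In kidney cells KFs held 4.23 times the level of KFc (counting interval 1.14 to 23.3, adjusted p = 0.0505), on 12 and 3 counts, and 3.06 times without KFs replicate 3 (0.653 to 18.9, adjusted p = 0.25). The kidney ratio gave an adjusted p of 0.0329 without KFc replicate 1 and 0.0434 without KFs replicate 1. In tail cells the change was -0.26 ± 0.3 (adjusted p = 0.52).

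*Wt1* (ENSMUSG00000016458, chr2:105126529-105173616), the zinc finger factor named for Wilms tumour and also made by mesothelium, was high in kidney, low in heart and at or near the floor in tail cells. KFc had 21.4, 24.5 and 23.1 CPM, KFs had 50.6, 39.8 and 40.7 CPM, HFc had 1.09, 1.18 and 0.983 CPM and HFs had 2.83, 3.22 and 4.33 CPM. TFc had 1 count in 3 libraries and TFs had 9 counts, of which 7 were in replicate 1, above the floor. Kidney, heart and tail libraries did not overlap in either state, and KFs replicate 3 lay between the other KFs libraries, 0.901 times their mean. In culture KFc exceeded HFc by a log2 fold change of 4.39 ± 0.3 (adjusted p = 4.71e-08) and TFc by a ratio of 1890 (counting interval 339 to 74600, adjusted p = 1.96e-09), and HFc exceeded TFc 90.1-fold (15.7 to 3600, adjusted p = 3.23e-06). In the graft KFs exceeded HFs by 3.65 ± 0.28 (adjusted p = 3.5e-07) and TFs by 8.22 ± 0.4 (adjusted p = 8.48e-09), values that were 3.68 ± 0.25 and 8.28 ± 0.37 without KFs replicate 3.

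*Wt1* was the 1 member higher in the graft than in culture at an adjusted p under 0.05 in all 3 organs. HFs exceeded HFc by 1.67 ± 0.3 (adjusted p = 0.000242). KFs exceeded KFc by 0.93 ± 0.25 (adjusted p = 0.00605) with no overlap between the groups, and by 0.93 ± 0.23 without replicate 3 (adjusted p = 0.00269), a size under the limit of 1. TFs exceeded TFc 11.5-fold on 9 and 1 counts (counting interval 1.59 to 503, adjusted p = 0.0253), a call lost without TFs replicate 1 (adjusted p = 0.418), TFc replicate 1 (0.098) or TFc replicate 2 (0.0779). Of 5 mesothelial markers, 4 fell and none rose from HFc to HFs (27.7% of all genes called), 3 fell and none rose from KFc to KFs (22.6%), and 1, *Msln*, rose and none fell from TFc to TFs (16.5%). The sum of *Msln*, *Upk3b*, *Lrrn4*, *Upk1b* and *Bnc1* was 188 to 193 CPM in HFc and 1.74 to 5.92 CPM in HFs, 5.17 to 6.97 CPM in KFc and 0.728 to 1.54 CPM in KFs, and 0 in TFc and 0.17 to 0.428 CPM in TFs. This sum was lower in kidney than in heart cells, and *Wt1* was higher. The part of mesothelial cells in the *Wt1* values of any organ, or in their change on transplantation, was not tested.

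*Foxd1* (ENSMUSG00000078302, chr13:98354242-98359305), the forkhead factor of stromal progenitors, was low everywhere and highest in cultured kidney cells. KFc had 1.08, 1.47 and 2.76 CPM, KFs had 0.768, 0.481 and 0.762 CPM, HFc had 0.255, 0.846 and 0.59 CPM, HFs had 0.361, 0.264 and 0.456 CPM, TFc had 0.742, 0.275 and 0.132 CPM and TFs had 0.642, 0.682 and 0.636 CPM. The KFc libraries lay above all others, and the remaining groups lay close together. KFc exceeded TFc by 2.16 ± 0.58 (adjusted p = 0.00848), with adjusted p = 0.0517 without KFc replicate 3, and HFc by 1.64 ± 0.56 (adjusted p = 0.0392), lost without HFc replicate 1 or 3 or KFc replicate 2 or 3 (adjusted p = 0.145, 0.0891, 0.0592 and 0.194) with a replicate block (1.6, adjusted p = 0.0664) and with no filter (1.7, adjusted p = 0.0515). In the graft KFs relative to TFs was 0.03 ± 0.57 (adjusted p = 0.976) and KFs relative to HFs 0.88 ± 0.59 (adjusted p = 0.281), and without KFs replicate 3 the values were -0.07 ± 0.65 (adjusted p = 0.948) and 0.76 ± 0.67 (adjusted p = 0.396). The fall from KFc to KFs, -1.4 ± 0.56 (adjusted p = 0.0486), was lost without KFc replicate 2 or 3 or any KFs library, with adjusted p between 0.056 without KFs replicate 3 and 0.235 without KFc replicate 3, with the block (0.0729), with no filter (0.0672), with library size in place of TMM (0.0605) and on the 6 libraries alone (0.0638).

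**Figure D2:**
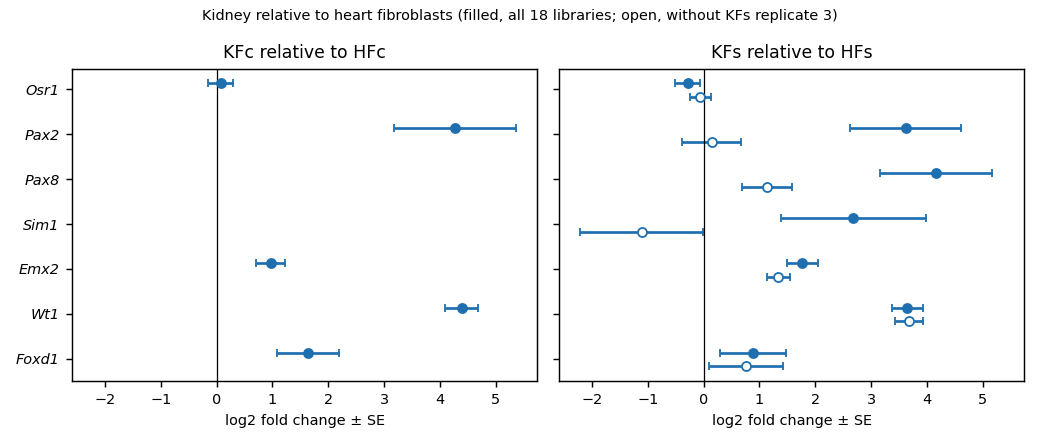
Log2 fold change (x axis, bars are 1 SE) of kidney relative to heart fibroblasts for the members shown (y axis), cultured at the left and transplanted at the right, filled points from all 18 libraries and open points without KFs replicate 3. A gene is left out of a panel where a group had no library above the floor. *Wt1* had 4.39 in culture and 3.65 in the graft, while the graft value of *Pax2* went from 3.62 to 0.14 without the library.

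A change between culture and graft was called where the adjusted p was under 0.05 and the log2 fold change lay outside the range from -1 to 1. From KFc to KFs 2 of the 8 tested members were called, *Sim1* up and *Foxd1* down, where 22.6% of all genes were, 14.7% up and 7.99% down. Without KFs replicate 3, *Pax2* and *Pax8* were called instead, both lower in the graft, against 23.2% of all genes. From HFc to HFs 4 members were called, *Pax8*, *Sim1* and *Wt1* up and *Emx2* down, where 27.7% of all genes were, 18.3% up and 9.33% down, and without KFs replicate 3 the count was again 4, against 29% of all genes. From TFc to TFs 2 were called, *Pax8* and *Wt1*, both up, where 16.5% of all genes were, 11% up and 5.53% down, and without KFs replicate 3 the count was 3, against 18.3%.

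**Figure D3:**
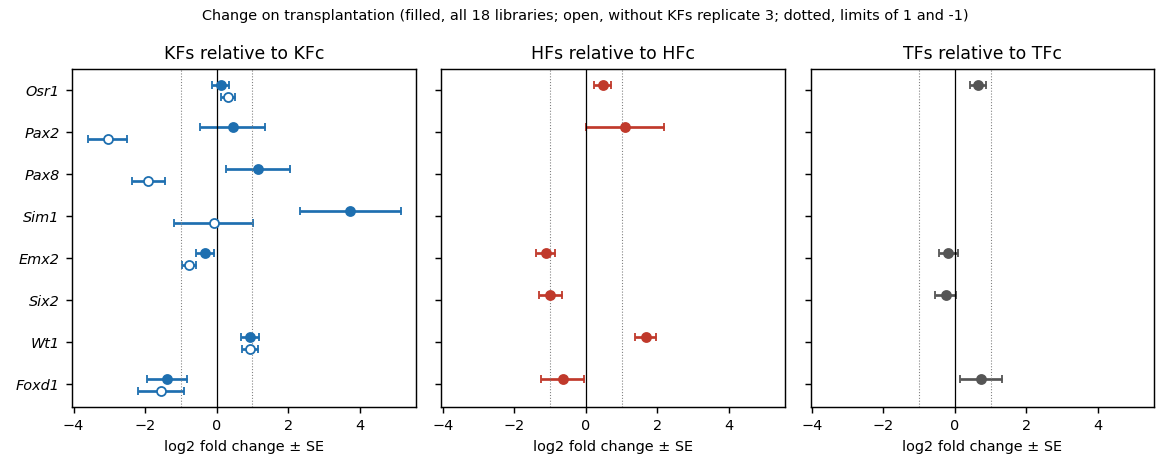
Log2 fold change from culture to graft (x axis, bars are 1 SE) for 8 members (y axis) in kidney, heart and tail fibroblasts, filled points from all 18 libraries, open points without KFs replicate 3, dotted lines at 1 and -1. Where a group had no library above the floor, the gene has no point. In the kidney panel *Pax2* moved from 0.45 to -3.05 and *Pax8* from 1.15 to -1.91 when the library was left out.

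The responses of the organs were compared with interaction contrasts. With all libraries, 1 member passed, *Six2* in kidney relative to heart (2.93 ± 0.84, adjusted p = 0.018), where 26.2% of all genes passed, 15.5% higher and 10.7% lower, and it rests on KFc at 3 counts in all. It was lost without KFc replicate 2 (2.41, adjusted p = 0.0507) or KFs replicate 3 (2.43, adjusted p = 0.0929). The edgeR test called 0 members for kidney relative to tail, where 11.1% of all genes passed (4.99% higher and 6.07% lower), and 0 for heart relative to tail, where 22.8% did (10.1% higher and 12.7% lower). At an unadjusted p under 0.05, 2 members lay in the first contrast, *Foxd1* and *Six2* (0.0185 for both), and 1 in the second, *Emx2* (0.0224). DESeq2 called 1 member in the first, *Pax8* (adjusted p = 0.0109), and 0 in the second. Without KFs replicate 3, the kidney response of *Pax2* was below that of tail (adjusted p = 0.000396, where 21.4% of all genes passed), with TFc at the floor, and differed from that of heart by -4.18 ± 0.74 (adjusted p = 0.000467, where 35.2% passed). *Pax8* passed in the same direction in both contrasts (adjusted p = 8.37e-05 and 2.8e-05), with HFc and TFc at the floor. *Sim1* also passed against heart (adjusted p = 0.014), with HFc at 0. In the same fit the response of *Emx2* was lower in heart than in tail (-0.9 ± 0.26, adjusted p = 0.0153, where 32.3% of all genes passed).

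Markers of epithelium and of other cells were read beside these values. Counts of markers that rose or fell between culture and graft are to be set against the shares of all genes called. These shares were 22.6% from KFc to KFs (23.2% without KFs replicate 3), 27.7% from HFc to HFs and 16.5% from TFc to TFs. The 7 epithelial markers (*Epcam*, *Cdh1*, *Cdh16*, *Krt7*, *Krt8*, *Krt18* and *Krt19*) summed to 40.6 to 49.4 CPM in KFc, 3.19 to 4.33 CPM in HFc and 5.49 to 6.45 CPM in TFc. The cultured group with the most *Pax2* and *Pax8* was thus also the one with the most of these markers, and bulk libraries do not show whether the same cells made both. *Cdh16*, the kidney cadherin, had 18.2, 16.8 and 17.1 CPM in KFc and no count in HFc or TFc. In KFs the sum was 25.1 to 195 CPM and peaked in replicate 3, which had 58.8 CPM of *Cdh16* against 7.56 and 4.52 CPM in the others. With all libraries 1 of the 7 rose from KFc to KFs, *Krt19*, and none fell. Without KFs replicate 3, *Krt7*, *Krt8* and *Krt18* fell and *Krt19* rose. In KFs replicates 1 and 2, *Pax2* and *Pax8* stood at 0.123 and 0.275 times their KFc means, *Krt18* at 0.193, *Krt8* at 0.28, *Cdh16* at 0.348 and *Epcam* at 0.674, while *Krt19* had 13.8 and 15.7 CPM against 6.94, 4.05 and 7.34 CPM in KFc.

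The 10 proximal tubule markers summed to 103 to 112 CPM in KFc, of which *Lrp2*, the endocytic receptor megalin, gave 92 to 99.2 CPM, and *Slc34a1*, *Slc27a2*, *Kap*, *Pck1* and *Miox* were at 0 in all 3 libraries. They summed to 22.5 to 25.0 CPM in HFc and 19.5 to 21.8 CPM in TFc, and to 120 to 1190 CPM in HFs, 139 to 333 CPM in TFs and 61.8 to 129 CPM in KFs. All 10 rose from HFc to HFs and from TFc to TFs, and 8 from KFc to KFs (7 without KFs replicate 3). HFs replicate 2 had the most of them, with 174 CPM of the phosphate transporter *Slc34a1*, and was also the HFs library with the most *Pax8* and *Pax2*. In KFs replicate 3 the 10 markers summed to 99.7 CPM, between KFs replicates 1 and 2 (129 and 61.8 CPM). It was the lowest KFs library for *Slc34a1* (3.33 CPM against 14.8 and 7.66 CPM), *Slc27a2*, *Kap*, *Slc5a2* and *Miox*. It was the highest for *Lrp2* (55.2 CPM against 45.2 and 22.7 CPM), *Cubn* and *Pck1*, and lay between the others for *Cyp2j5* and *Aqp1*.

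The 7 markers of the loop of Henle, distal tubule and collecting duct summed to at most 0.366 CPM in the cultured libraries, where *Umod*, *Calb1* and *Scnn1g* were at 0 in all 3 groups. In the graft they summed to 12.1 to 82.6 CPM in HFs, 13.3 to 23.2 CPM in KFs and 20.0 to 64.8 CPM in TFs. Of the 6 tested, 6 rose in heart, 4 in kidney and 5 in tail, and the kidney count was 4 without KFs replicate 3 as well.

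Of 5 macrophage markers, 4 fell from KFc to KFs and 4 from TFc to TFs, with sums of 359 to 374 CPM in KFc, 10.4 to 117 CPM in KFs, 159 to 187 CPM in TFc and 32.2 to 38.4 CPM in TFs, and none changed in heart (73.2 to 85.9 CPM in HFc and 78.6 to 135 CPM in HFs). Of 5 endothelial markers, 3 rose in kidney, 4 in heart and 3 in tail, with sums between 21.8 and 40.0 CPM over all libraries. Of 8 fibroblast markers, 5 rose and 1 fell in kidney and in heart, and 4 rose in tail, with sums of 12300 to 16200 CPM in culture and 17800 to 123000 CPM in the graft. The part of such cells or of host RNA in the member values was not tested.

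**Figure D4:**
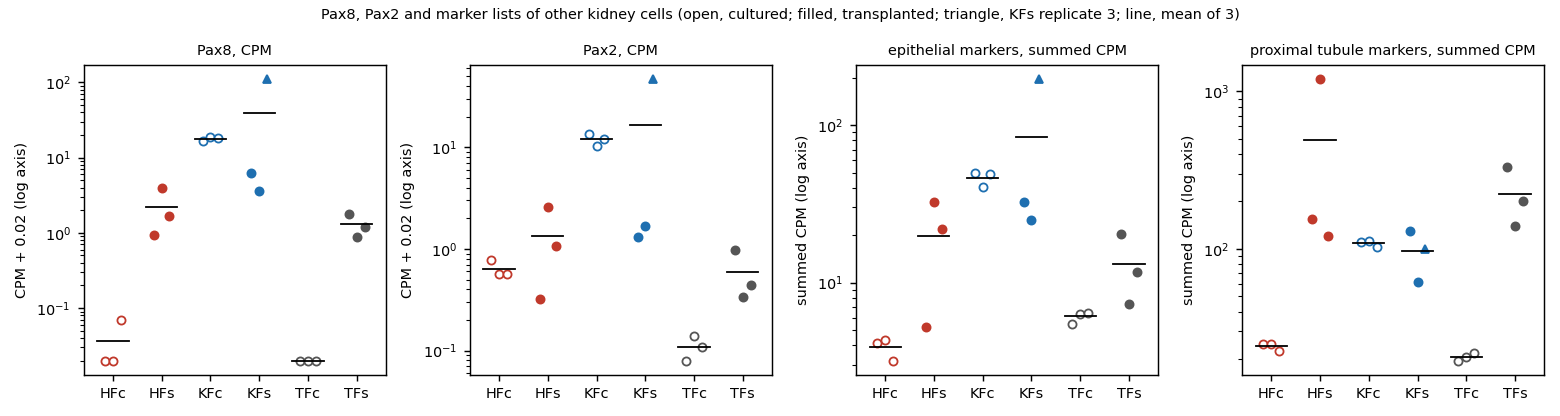
Levels (y axes, log) of *Pax8* and *Pax2* as CPM + 0.02 and of the epithelial and proximal tubule marker lists as summed CPM, by group, with points and lines as in the plot of the 9 genes. The triangle (KFs replicate 3) is highest for *Pax8*, *Pax2* and the epithelial sum (195 CPM) but not for the proximal tubule sum, where HFs replicate 2 is highest (1190 CPM).

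Genes most like each member over the 18 libraries were ranked by Pearson's r of log2 CPM, as a description, since libraries share groups and organs. For *Pax8* they included *Krt8* (0.984) and *Igsf5* (0.983), with r of 0.98 and 0.978 without KFs replicate 3. For *Pax2* they were *Aif1l* (0.962), *Krt18* (0.962) and *Cyfip2* (0.955), and *Sim1* was most like *Epcam* (0.938), an epithelial adhesion molecule, but without KFs replicate 3 most like *Tfap2b* (0.886), with *Epcam* next (0.883). Without that library *Cyfip2* led for *Pax2* (0.95). The leading genes for *Wt1* were *F11r* (0.947), *Ttc19* (0.944) and *Dennd5b* (0.941), led by *Ttc19* (0.959) without that library, and those for *Six2* were *Ankrd28* (0.948), *Kcnk2* (0.934) and *Sox6* (0.932), led by *Sox6* (0.948) without it. *Osr1* was most like *Asph* and *Ldb2* (0.92 for both), *Emx2* like *Celf1* (0.916), and *Foxd1* like *Yap1* (0.795), and without KFs replicate 3 the leading genes were *Runx1t1* (0.928), *Adprh* (0.96), and *Ccdc81* and *Rem2* (0.808 for both). Between members, r was 0.891 for *Pax2* with *Pax8* and -0.941 for *Wt1* with *Six2*.

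Other genes of the renal programme were described as lists, and the percentages of all genes given above apply to each comparison. Of the 11 ureteric bud genes 10 were tested, and KFc exceeded TFc in 4 and lay below it in 2. The median log2 fold change was 0.27, and -0.04 over all genes. *Sox9*, a factor of bud tips and cartilage, was lower in KFc than in TFc (-1.9 ± 0.29, adjusted p = 0.000132), and so was *Gfra1*, the GDNF co-receptor (-3.22 ± 0.48, adjusted p = 9.97e-05). From KFc to KFs 2 of the 10 rose and 2 fell, with a median of 0.13 (0.09 over all genes) and of -0.72 without KFs replicate 3, where 4 fell and none rose.

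Of 8 nephron progenitor and metanephric mesenchyme genes, 6 were tested, and all 6 differed between KFc and TFc. *Sall1*, a zinc finger factor of the mesenchyme, and *Itga8*, an integrin chain of the same tissue, were higher in kidney. The other 4, among them *Eya1*, *Meox1* and *Gdnf*, were higher in tail, for a list median of -2.27 (-2.25 with genes at the floor put at their bound, -0.04 over all genes). *Sall1* had 7.2, 7.4 and 7.61 CPM in KFc, 2.51 and 2.24 CPM in KFs replicates 1 and 2 and 46.5 CPM in replicate 3. *Cited1*, a marker of the youngest progenitors, and *Fgf20* did not pass the filter.

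Of 10 nephron induction and segmentation genes, 9 were tested. From KFc to KFs *Wnt4*, the inducer of the mesenchyme to epithelium transition, rose by 1.01 ± 0.19 (adjusted p = 0.000516), and by 0.95 without KFs replicate 3, under the limit of 1. In heart cells *Wnt4* had 24.5, 17.6 and 20.1 CPM in HFc and 55.3, 41.5 and 54.1 CPM in HFs. Tail cells had 39.6, 29.7 and 29.2 CPM of it in TFc and 38.2, 49.6 and 41.1 CPM in TFs. *Hnf4a*, a proximal tubule factor, had 4.49, 3.37 and 3.25 CPM in KFs and at most 0.0698 CPM in KFc. It was also higher in the other grafts, with 7.82, 33.1 and 5.39 CPM in HFs and no count in HFc. TFs had 14.2, 4.68 and 6.45 CPM of *Hnf4a* and TFc 0.831, 2.12 and 1.4 CPM. In heart 4 of the 9 rose and 1 fell, with a median of 2.62 (1.55 with genes at the floor put at their bound, 0.05 over all genes). The segment factors *Pou3f3*, *Irx1* and *Irx3* had 21.6, 36.8 and 29.4 CPM in KFs replicate 3 and between 0.833 and 5.8 CPM in the other 2 KFs libraries.

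Of 10 renal stroma genes, 9 were tested, of which KFc exceeded TFc in 6 and lay below it in none. Their median was 1.43, and -0.04 over all genes. The counts were 7 and 1 without KFs replicate 3, the latter *Fat4*. HFc exceeded TFc in 7 of the 9 and lay below it in 1, with a median of 2.44 (-0.01 over all genes), and KFc exceeded HFc in 5 and lay below it in 3, with a median of 0.78 (-0.03 over all genes). *Meis1* and *Meis2*, homeobox cofactors, exceeded TFc by 1.43 ± 0.21 (adjusted p = 9.39e-05) and 1.81 ± 0.14 (adjusted p = 1.27e-07). *Tcf21*, a factor of renal and cardiac stroma, had 5.74, 4.85 and 5.55 CPM in KFc, 129, 134 and 152 CPM in HFc and none in TFc. In KFs it had 4.24 and 1.41 CPM in replicates 1 and 2 and 0.12 CPM in replicate 3. From KFc to KFs *Rarb*, a retinoic acid receptor, rose by 1.83 ± 0.29 (adjusted p = 0.000118), or 1.92 without KFs replicate 3, and *Bmp4* fell by 2.8 ± 0.71 (adjusted p = 0.00413) and by 5.83 without KFs replicate 3 (adjusted p = 4.33e-09).

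Of 6 podocyte markers 4 were tested, and from KFc to KFs *Nphs1* (1.72 ± 0.49, adjusted p = 0.00843) and *Podxl* (2.16 ± 0.75, adjusted p = 0.027) rose. *Podxl* had 18.9 CPM in KFs replicate 3 and gave 0.65 without that library (adjusted p = 0.418), where *Nphs1* gave 1.7 (adjusted p = 0.0153). Of 7 close relatives of the members, 6 were tested. *Pax5*, the third gene of the *Pax2* and *Pax8* subfamily, had 1.49, 1.75 and 1.46 CPM in KFc and did not differ past the threshold between KFc and TFc (0.12 ± 0.32, adjusted p = 0.799), and rose on transplantation in kidney (2.74 ± 0.31, adjusted p = 4.49e-06), heart (2.91 ± 0.31, adjusted p = 1.67e-06) and tail cells (2.05 ± 0.31, adjusted p = 0.000115). *Lhx5*, the relative of *Lhx1*, rose likewise, by 2.01 ± 0.33 (adjusted p = 0.000147), 3.05 ± 0.35 (adjusted p = 2.91e-06) and 1.52 ± 0.32 (adjusted p = 0.00174). Leaving out KFs replicate 3 gave kidney values of 2.34 for *Pax5* (adjusted p = 3.13e-06) and 1.76 for *Lhx5* (adjusted p = 0.00045). *Osr2*, the relative of *Osr1*, rose in tail (2.58 ± 0.6, adjusted p = 0.00327) from 1.19, 1.81 and 0.921 CPM in TFc to 5.4, 7.59 and 10.4 CPM in TFs.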

How the data were processed

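Reads came from stranded total RNA libraries (SMARTer Pico kit, single-end) of the 18 samples. The authors trimmed the reads for quality, mapped them on GRCm38 by Bowtie2 called from RSEM, and deposited RSEM's expected counts per gene, as whole numbers without normalization. The submitters' processing notes name mm9 in place of GRCm38, and coordinates here are those of the GRCm38 annotation (GENCODE), from which 37607 of 38924 identifiers took a symbol. The other 1317 held 0.277% of counts.

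Groups were taken from the sample titles. The quasi-likelihood test of edgeR 4.0.16 (R 4.3.3) was run on all 18 libraries, with a mean for each group, TMM factors and the filterByExpr filter. Benjamini-Hochberg adjustment covered all 16577 genes that passed the filter. Calls needed an adjusted p under 0.05 and, between graft and culture, a log2 fold change outside -1 to 1. The SE is the log2 fold change divided by the square root of F. The biological coefficient of variation was 0.24. Where every library of a group was at or under 3 counts, folds were computed from summed counts or against this floor per library. The pipeline was tested on simulated data. Figures used Python 3.11.15 and matplotlib 3.10.9.

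The text names all 9 members, some genes of lists of renal development, relatives and cell type markers, genes overlapping a member and the 3 genes most correlated with each member (log2 CPM, prior count 2). Some genes of these lists, and comparisons of the lists other than those given, are not reported here. The members and lists were chosen with earlier results of these data known. The alternatives were DESeq2 1.42.0, scaling by DESeq2 size factors or by library size alone, leaving out the filter, a filter on mean counts under 10, the replicate number as a block, only the groups compared, no fold limit, and each library left out in turn.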

Additional observations from a re-analysis of the deposited data

Results flagged for a closer look

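*Six2* was flagged because its response to transplantation differed between organs. The difference between kidney and heart was 2.93 ± 0.84 on the log2 scale (interaction contrast, edgeR, adjusted p = 0.018). In heart cells the level went from 5.54, 5.21 and 7.47 CPM to 4.45, 2.95 and 1.82 CPM, and in kidney cells from 3 to 12 counts in 3 libraries each. Every KFc library was at or under the floor of 3 counts, so the size of the difference depends on how low counts are treated and is no bound. Without KFs replicate 3 the difference was 2.43 (adjusted p = 0.0929) and without KFc replicate 2 it was 2.41 (adjusted p = 0.0507).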

How the results depend on the processing

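Results for single members stayed on the same side of their threshold in 96 of 96 with DESeq2 size factors. The same held with a mean count filter of 10. The number was 94 of 96 with no filter, 91 of 96 with library size alone, 90 of 96 with DESeq2 and 89 of 96 with the replicate block. It was 73 of 85 with only the groups compared and 21 of 24 with no fold limit. Of 96 results without KFs replicate 3, 6 lost their call and 11 gained one. Another 3 changed direction and also gained or lost a call. KFs relative to KFc changed direction without KFs replicate 3, to -3.05 for *Pax2*, -1.91 for *Pax8* and -0.08 for *Sim1*, and with any 1 library left out the values reached 1.0, 1.65 and 4.28. Counts of members that passed moved as follows. With DESeq2 they were 1 for the kidney relative to tail response and 3 for kidney relative to heart. In KFs relative to KFc the count was 1 with no filter. With only the groups compared it was 0 in KFs relative to KFc, 1 in TFs relative to TFc, 2 in KFs relative to TFs, 3 in KFs relative to HFs, 2 in the kidney relative to heart response and 1 in heart relative to tail. Over all genes, the counts without a fold limit were 8091 for KFs, 9353 for HFs and 6433 for TFs relative to culture, and with only the groups compared 7508 for KFc relative to HFc, 1137 for KFs relative to TFs and 883 for KFs relative to HFs. Fewer libraries estimate the spread in those fits.

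Replicate numbers were shared between groups, but same-numbered libraries did not deviate together (mean correlation of deviations between -0.0898 and 0.0243), so the numbers were not read as pairs. With the replicate block *Pax2* in KFs relative to KFc was -0.21 (adjusted p = 0.886), and 0 members passed in KFs relative to KFc, 2 in HFc relative to TFc, 6 in KFs relative to TFs and 4 in KFs relative to HFs. Shares of all genes in the fits with the block, DESeq2 or no filter are not reported here. Member counts from these fits thus have no background beside them.

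With 1 library left out, the members called ranged from 0 to 2 in KFs relative to KFc, 3 to 6 in HFs relative to HFc, 0 to 3 in TFs relative to TFc, 6 to 7 in KFc relative to TFc, 5 to 7 in KFc relative to HFc, 2 to 4 in HFc relative to TFc, 5 to 7 in KFs relative to TFs, 3 to 6 in KFs relative to HFs and 2 to 4 in HFs relative to TFs. In the responses they ranged from 0 to 2 for kidney relative to tail, 0 to 3 for kidney relative to heart and 0 to 1 for heart relative to tail. *Lhx1* was tested in most of these fits and could add to the counts, unlike in the fit on all 18 libraries. Of 16923 to 17040 genes tested, 3347 to 3921 passed in KFs relative to KFc and 4245 to 4912 in HFs relative to HFc. The range was 2356 to 3089 in TFs relative to TFc and 4830 to 7412 in KFc relative to TFc. It was 3703 to 6136 in KFc relative to HFc and 5838 to 8227 in HFc relative to TFc. In the graft it was 3183 to 5944 for KFs relative to TFs and 4126 to 6570 for KFs relative to HFs. For HFs relative to TFs it was 2743 to 5244. In the responses it was 1198 to 3619 (kidney relative to tail), 3249 to 5962 (kidney relative to heart) and 2892 to 5461 (heart relative to tail). Genes under about 1 CPM, *Lhx1*, *Sim1* and *Foxd1* above all, are limited by depth.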
